A study of Mus musculus with 15 samples.

Results

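The genes described here repair broken and crosslinked DNA: 38 genes of homologous recombination, the Fanconi anaemia pathway and end joining. They were chosen by name for their function, with earlier results of these data known. They were followed in haematopoietic stem cells (HSC), which form all blood cells, and in granulocyte/macrophage progenitors (GMP), which divide often and form neutrophils and macrophages. Of the 38 genes, 35 were measured, among 19296 genes in all, and Xrcc2, Rbbp8 and Dclre1c were not analysed here. Each gene was represented by its brightest probe set with a single gene symbol.

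RNA was measured on 15 Affymetrix arrays, of which 3 held HSC from old mice, 5 HSC from young mice, 3 GMP from old mice and 4 GMP from young mice. All mice were labelled wild type C57Bl/6 and male. Old mice were 22 to 30 months of age and young mice 6 to 12 weeks. HSC were sorted as Lin-/cKit+/Sca1+/Flk2-/CD48-/CD150+ and GMP as Lin-/cKit+/Sca1-/FcγR+/CD34+ bone marrow cells, with a repeated sort, and the small RNA amounts were amplified before labelling. Nothing in the labels tells 1 mouse from a pool of mice on an array, so p-values here speak of the spread between arrays only. Values are log2 levels, on which a difference of 1 is a 2-fold difference.

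Homologous recombination repairs a broken chromosome by copying the sister chromatid, and therefore acts in S and G2 phase. Nucleases trim the break, the BRCA proteins prepare the exposed strand for pairing with its copy, and helicases and nucleases resolve the joined molecules. The Fanconi pathway uses the same machinery at crosslinks and stalled replication forks: its core complex attaches ubiquitin to the FANCD2 and FANCI proteins, and USP1 removes it. End joining ligates broken ends without a template and works throughout the cell cycle, which makes it the route available to a resting cell such as most HSC. In mice, loss of Fanconi or end-joining genes impairs HSC function.

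Promoters are shown for the genes that fell with age in HSC, and for Xrcc6, whose protein pairs with that of Xrcc5, because the data bear on the RNA levels of these genes. The windows, from RefSeq on the mouse build GRCm38.p6, run from 250 bases before to 50 bases after the annotated start and are written along the gene's strand. They lie at chr6:119902448-119902747 on the plus strand (Rad52), chr10:62946779-62947078 on the plus strand (Dna2), chr7:80534949-80535248 on the minus strand (Blm), chr1:72307171-72307470 on the plus strand (Xrcc5) and chr15:82016119-82016418 on the plus strand (Xrcc6). Of 7 genes chosen for display, 5 had a window, and Nbn and Usp1 are named only. Capitals mark matches, on either strand, to letters bound by E2F factors (TTCCCGC or TTGGCGC or TTCGCGC or TTGCCGC) or to the CCAAT box.
Rad52: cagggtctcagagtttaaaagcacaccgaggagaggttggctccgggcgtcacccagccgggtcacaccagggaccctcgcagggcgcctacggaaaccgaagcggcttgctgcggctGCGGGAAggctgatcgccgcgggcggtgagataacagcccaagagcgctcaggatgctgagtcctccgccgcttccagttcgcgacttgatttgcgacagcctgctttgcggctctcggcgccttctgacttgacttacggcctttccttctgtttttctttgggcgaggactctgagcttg
Dna2: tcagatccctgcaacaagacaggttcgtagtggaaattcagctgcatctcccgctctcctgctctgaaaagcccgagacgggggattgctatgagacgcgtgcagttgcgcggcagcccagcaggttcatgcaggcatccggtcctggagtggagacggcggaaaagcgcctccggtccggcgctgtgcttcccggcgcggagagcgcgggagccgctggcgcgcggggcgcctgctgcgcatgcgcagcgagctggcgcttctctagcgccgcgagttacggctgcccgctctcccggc
Blm: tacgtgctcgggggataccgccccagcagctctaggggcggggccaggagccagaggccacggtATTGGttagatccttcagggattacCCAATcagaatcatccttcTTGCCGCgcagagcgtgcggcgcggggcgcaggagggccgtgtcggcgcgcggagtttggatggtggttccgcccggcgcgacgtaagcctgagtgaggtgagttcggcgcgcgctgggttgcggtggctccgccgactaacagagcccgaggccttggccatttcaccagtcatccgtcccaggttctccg
Xrcc5: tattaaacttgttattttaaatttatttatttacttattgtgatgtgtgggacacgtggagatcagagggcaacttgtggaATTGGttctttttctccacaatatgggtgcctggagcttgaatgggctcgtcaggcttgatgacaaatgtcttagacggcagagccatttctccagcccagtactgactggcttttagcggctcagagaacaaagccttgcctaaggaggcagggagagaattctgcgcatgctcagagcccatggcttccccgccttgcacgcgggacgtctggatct
Xrcc6: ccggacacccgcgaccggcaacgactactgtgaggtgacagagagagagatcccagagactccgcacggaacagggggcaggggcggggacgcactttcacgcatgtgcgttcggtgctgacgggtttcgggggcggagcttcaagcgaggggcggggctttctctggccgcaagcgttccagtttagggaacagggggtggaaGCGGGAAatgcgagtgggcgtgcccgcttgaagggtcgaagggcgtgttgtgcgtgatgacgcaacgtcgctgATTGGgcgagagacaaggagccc
Blm held 1 E2F match and 2 CCAAT matches, Xrcc6 1 of each, Rad52 1 E2F match, Xrcc5 1 CCAAT match and Dna2 none. The E2F letters occurred in 15 of the 28 repair genes with a window, in 14.9% of the 15160 array genes with one and in 9.57% of all 32851 windows. CCAAT occurred in 14 of the 28, in 41.8% of the array genes and in 37.4% of all windows, and the cell-cycle element TTTGAA in 2 of the 28, in 17.2% of the array genes and in 17.9% of all windows. Matches did not overlap each other in the 5 windows shown. A match is a description of the letters only.

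The sorted cells carried the RNAs of their labels: of 11 measured HSC marker genes 11 were higher in HSC than in GMP at both ages, and of 12 GMP marker genes 10 were lower in HSC in old mice and 11 in young mice. The GMP marker gene Kit, which HSC also express, was higher in HSC at both ages (1.16 in old and 1.06 in young mice). Young HSC replicate 4 stood apart in some list means. Its macrophage markers averaged 7.01, against 6.29 to 6.43 on the other young HSC arrays. Its megakaryocyte markers averaged 7.97 against 8.27 to 8.50, and its HSC markers 9.47 against 9.75 to 9.99. Its GMP markers did not stand apart, at 7.71 against 7.71 to 7.78. Some young arrays went against their labels. Xist, the RNA of the inactive female X chromosome, lay at 5.46 to 5.84 on the 6 old arrays and at 8.92 to 11.51 on 7 of the 9 young arrays, the exceptions being replicate 1 of young HSC and of young GMP. In replicate 4 the Y-linked genes averaged 4.94 (young HSC) and 5.20 (young GMP), against 7.12 to 8.80 on the other 13 arrays. Replicates 2, 3 and 5 of young HSC and 2 and 3 of young GMP were high in both. Their Xist lay at 8.92 to 11.16 and their Y-linked mean at 7.12 to 8.47, so RNA of both sexes was read on these arrays. Whether they hold several mice was not tested. The spread of values within an array also differed, with an interquartile range of 1.96 to 2.33 log2 in old HSC against 2.21 to 2.69 in young HSC, and of 2.27 to 2.48 in old GMP against 2.13 to 2.60 in young GMP. Results are therefore given with and without these arrays. In bulk samples, fewer cells of a type and less RNA per cell cannot be told apart.

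The first comparison asked which repair genes differ between old and young HSC. 6 genes were lower in old HSC and 0 were higher: the end-binding gene Xrcc5, the resection genes Nbn and Dna2, the helicase gene Blm, the deubiquitinase gene Usp1 and the strand-annealing gene Rad52. Xrcc5 fell 2.04-fold and the others 1.32-fold to 1.44-fold. Of all genes, 9.22% were lower in old HSC and 2.25% higher at the same threshold, a limma adjusted p under 0.05, or 11.5% in either direction. Of the 35 repair genes, 25 had a negative difference, as did 46.6% of all genes, and 14 had an unadjusted p under 0.05, as did 31.4% of all genes. Their median was -0.18, against 0.03 over all genes.

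**Figure D1:**
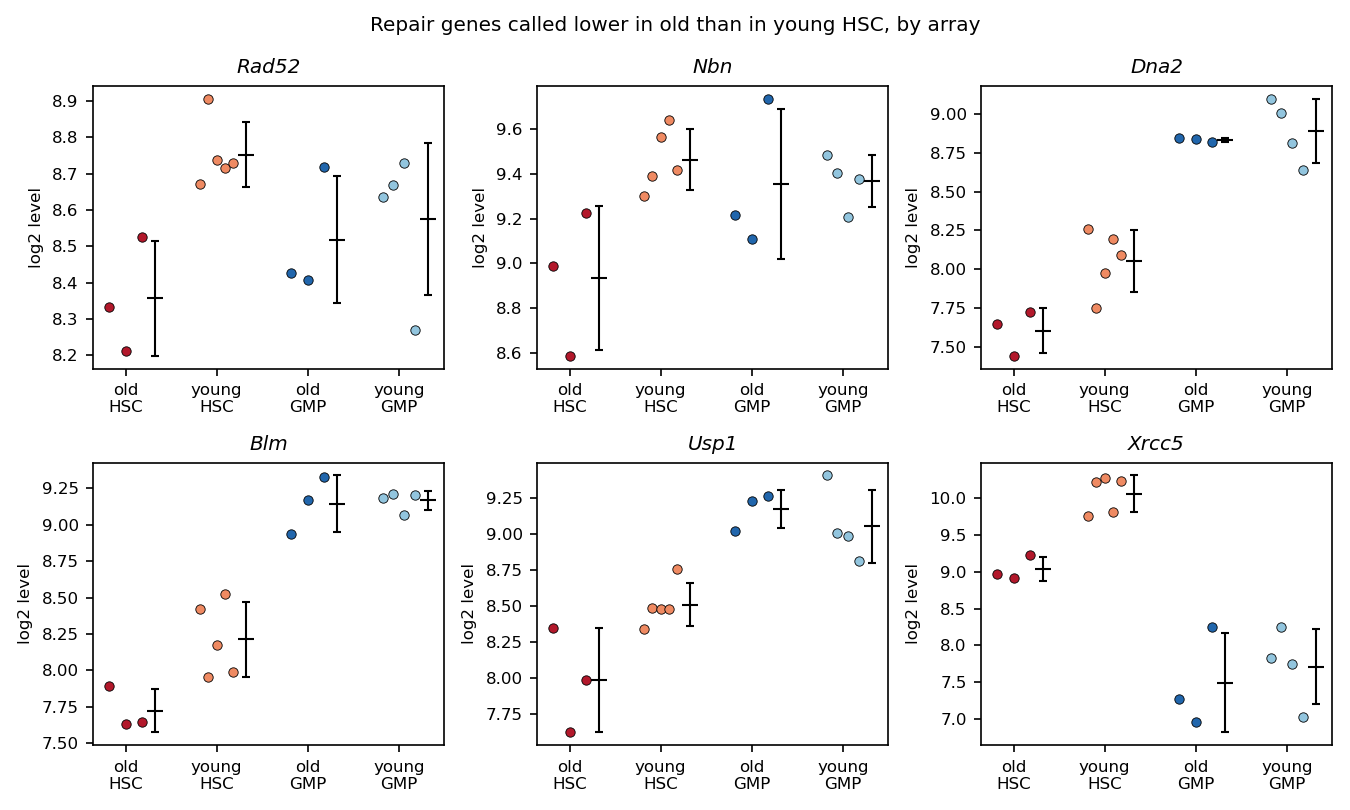
Log2 level (vertical axis, a separate scale per gene) of the 6 genes lower in old than in young HSC, by array (points), with the mean and SD of each group beside them. Old HSC lie below all young HSC arrays in each gene except Usp1, and the old and young GMP overlap in each.

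Among end-joining genes, Xrcc5 encodes Ku80, which with Ku70 forms the ring that first grips a broken end. Its level was 8.97, 8.91 and 9.22 in old HSC, against 9.76, 10.22, 10.27, 9.82 and 10.24 in young HSC. The highest old array lay below the lowest young one. The difference was -1.03 ± 0.25 (SE; 95% interval -1.55 to -0.50; limma adjusted p = 0.0171). Xrcc6, the Ku70 gene, averaged 8.64 ± 0.16 on the 3 old HSC arrays and 9.18 ± 0.41 on the 5 young ones (mean and SD), a difference of -0.54 that did not pass (interval -0.93 to -0.15; limma adjusted p = 0.0648). It passed without young HSC replicate 4 (-0.71; limma adjusted p = 0.00219). It also passed with the replicate number as a block (-0.65; limma adjusted p = 0.0119), but that block joined old and young arrays of different mice. The other end-joining genes did not pass: Nhej1, the ligase cofactor XLF, differed by -0.27, Trp53bp1, whose protein shields ends from resection, by -0.20, the ligase scaffold gene Xrcc4 by -0.19, the ligase gene Lig4 by -0.18 and Prkdc, the kinase recruited by Ku, by 0.05.

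Of 4 measured resection genes, 2 fell. Nbn encodes a subunit of the complex with MRE11 and RAD50 that senses and begins to trim breaks. It was at 8.99, 8.59 and 9.23 in old HSC, against 9.30, 9.39, 9.56, 9.64 and 9.42 in young HSC, and the groups did not overlap. It fell by 0.53 ± 0.15 on the log2 scale (SE; limma adjusted p = 0.0323). A dimmer probe set of Nbn differed by 0.14 ± 0.11 in the other direction, and the mean of both differed by -0.19 (limma adjusted p = 0.262). Dna2 encodes a nuclease of long-range resection. Its arrays read 7.65, 7.45 and 7.72 in old HSC, against 8.26, 7.75, 7.98, 8.20 and 8.10 in young HSC. The highest old array lay just below the lowest young one, with a difference of -0.45 ± 0.13 (SE; limma adjusted p = 0.0327). Exo1, the other long-range nuclease gene, differed by -0.18 and Rad50 by 0.23, and neither passed. Without young HSC replicate 4 Rad50 passed as higher in old HSC (0.37; limma adjusted p = 0.0263).

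Of the 3 genes that process joined molecules, Blm fell. It encodes the helicase that dissolves crossed strands and is mutated in human Bloom syndrome. Blm was at 7.90, 7.63 and 7.65 in old HSC, against 8.42, 7.96, 8.17, 8.53 and 7.99 in young HSC. The groups were separate, and the difference was -0.49 ± 0.14 (SE; limma adjusted p = 0.0292). Eme1 and Mus81, the subunits of a nuclease that cuts branched DNA, differed by -0.38 and -0.05 and did not pass.

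Of 6 measured genes of paralogs, mediators and motors of strand exchange, Rad52 fell. Its levels were 8.33, 8.21 and 8.53 in old HSC, against 8.67, 8.91, 8.74, 8.72 and 8.73 in young HSC. No old array reached the lowest young one, and the difference was -0.40 ± 0.12 (SE; limma adjusted p = 0.0456). The motor genes Rad54l and Rad54b differed by -0.32 and -0.30, Rad51ap1 by -0.11, and the paralogs Rad51c and Xrcc3, partners in 1 complex, by 0.06 and 0.30. None of these passed.

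In the Fanconi pathway, Usp1 alone was called of 10 genes of the core and of the FANCD2 and FANCI step. Usp1 was at 8.35, 7.62 and 7.98 in old HSC, against 8.34, 8.48, 8.48, 8.48 and 8.76 in young HSC. Old HSC replicate 1 lay just above young HSC replicate 1, so the groups overlapped. The difference was -0.53 ± 0.16 (SE; limma adjusted p = 0.0352). Its substrates' genes Fancd2 and Fanci each differed by -0.15. The 7 core complex genes ranged from -0.39 for Fancl, the ubiquitin ligase subunit, to 0.12 for Fance, and none passed.

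None of the 5 BRCA complex genes passed with age. Brip1, a helicase that binds BRCA1, differed by -0.48 (interval -0.81 to -0.16; limma adjusted p = 0.0512), with all old arrays below the young ones. Brca1 differed by -0.42 (limma adjusted p = 0.0839), Palb2, which links BRCA1 to BRCA2, by -0.13, the BRCA1 partner gene Bard1 by 0.02 and Brca2 by 0.16. Across the 35 genes, 7 had old HSC below all young HSC without overlap, against 7.69% of all genes, and 0 had them above, against 5.10% of all genes.

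**Figure D2:**
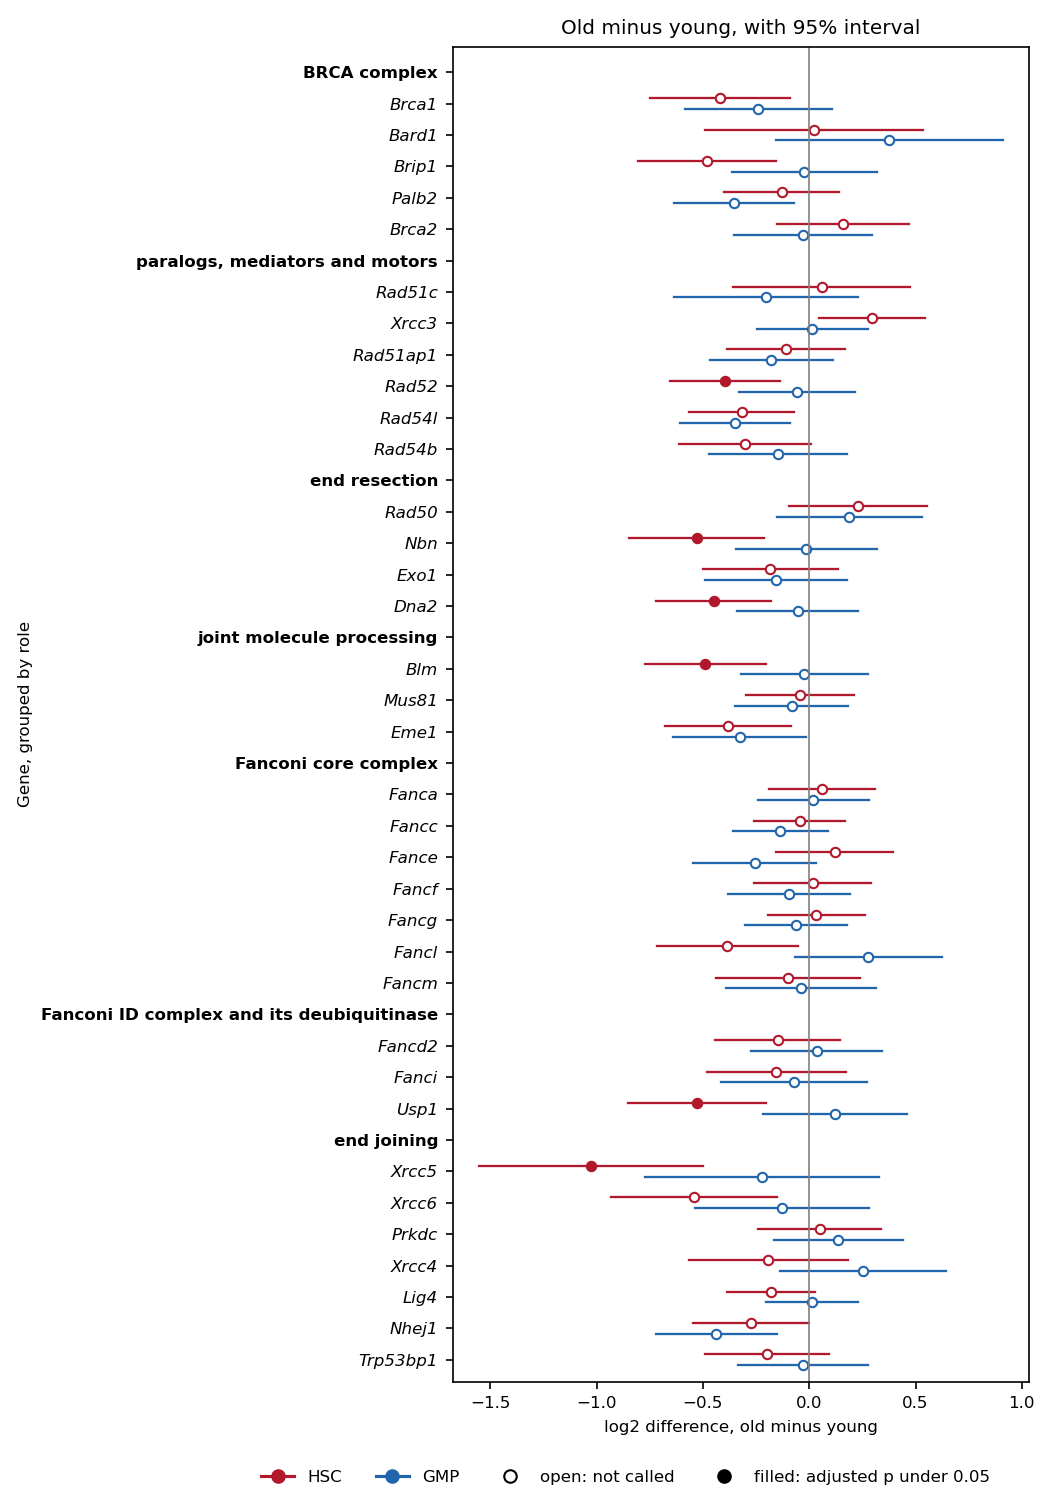
Old minus young log2 difference (horizontal axis) of each of the 35 repair genes in HSC and in GMP, grouped by role, with 95% intervals; filled points had a limma adjusted p under 0.05. The 6 filled points are all in HSC and lie left of 0, with Xrcc5 farthest at -1.03.

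The age count in HSC rested on single arrays and on the scaling. Without old HSC replicate 2 it was 0, while 1.79% of all genes were called. It was 1 without replicate 1 of old HSC and 1 without replicate 3 of young HSC, while 2.21% and 4.73% of all genes were called. Without young HSC replicate 4 it was 10, of which 8 were lower, including all 6 genes above, while 27.5% of all genes were called. With both young replicate 4 arrays left out it was 14, 12 lower and 2 higher, while 32% of all genes were called. With young HSC replicate 1 as the only young HSC array, the 6 differences ran from -0.72 for Xrcc5 to -0.32 for Rad52. That lone array has no replicate, so no count is given for it. With each array's interquartile range in the model the count was 0, while 0.544% of all genes were called, and Xrcc5 then differed by -0.51. After quantile normalization 3 genes passed, of which only Dna2 was among the 6, while 6.79% of all genes were called. The part of these array differences in the result was not tested beyond these values.

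Some genes of cell division also fell with age in HSC. Of 24 measured proliferation genes 6 fell in old HSC and 0 rose, where 9.22% of all genes fell, with a median of -0.37, and the mean level of this list was 8.11 to 8.66 on old HSC arrays against 8.51 to 8.89 on young HSC arrays, with overlap. The largest falls were in the S-phase cyclin gene Ccne2 (-0.98), the mitotic kinase gene Cdk1 (-0.77), the cyclin gene Ccnb2 (-0.70) and the spindle gene Tpx2 (-0.60). The mean level of the 28 recombination and Fanconi genes was 7.56 to 7.72 on old HSC arrays against 7.74 to 8.01 on young HSC arrays. That of the 7 end-joining genes was 8.29 to 8.51 on old HSC arrays against 8.61 to 8.85 on young HSC arrays. Both lists were separate between the ages, and the part of cell division in them was not tested. Markers of 8 other blood and vessel cell types had list medians from -0.09 to 0.22 in this comparison. Of their 70 measured genes 4 were lower and 4 higher, where 9.22% of all genes were lower and 2.25% higher, or 11.5% either way. The lower ones were the endothelial genes Emcn (-1.18) and Eng (-0.69), the megakaryocyte gene Gp5 (-0.84) and the T and NK cell gene Nkg7 (-0.61). The higher ones were Klrb1c of the T and NK cell list (1.15), the megakaryocyte gene Itgb3 (1.12), the B cell gene Pou2af1 (0.50) and the erythroid gene Slc4a1 (0.39). The mean level of the T and NK cell list was 6.45 to 6.59 on old HSC arrays against 6.20 to 6.38 on young HSC arrays, without overlap, and its part in the results was not tested.

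**Figure D3:**
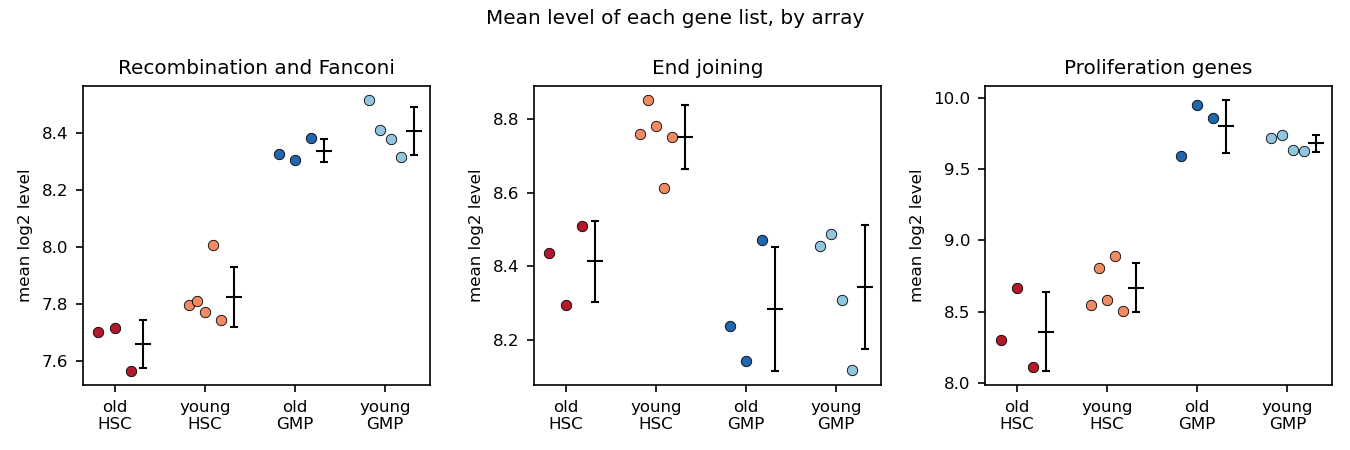
Mean log2 level (vertical axis, a separate scale per panel) of the 28 recombination and Fanconi genes, the 7 end-joining genes and the 24 proliferation genes, by array (points), with group mean and SD. Recombination and proliferation lists are lower in all HSC than in all GMP arrays. The end-joining mean is highest in young HSC, at 8.61 to 8.85, and includes Xrcc5, which differed by 2.35 between young HSC and GMP. The median difference of the 7 end-joining genes in young mice was 0.01, with 3 negative and 4 positive.

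Other genes of the same pathways were taken from a list of 60, of which 55 were measured. In old HSC 17 fell and 1 rose, against 9.22% and 2.25% of all genes, with a median of -0.27 against 0.03 over all genes. The largest falls were in Zswim7, part of the Shu complex (-0.84), Swi5, a recombination cofactor (-0.77), Psmc3ip, which acts in meiotic recombination (-0.75), and the DNA ligase gene Lig1 (-0.74). The gene that rose was Dntt, the polymerase that adds bases to ends in lymphoid V(D)J joining (0.46). Wdr48, the activator of USP1, also fell, by 0.70 on the log2 scale (limma adjusted p = 0.0106), and Ube2t, the enzyme that ubiquitinates FANCD2 together with FANCL, fell by 0.57 (limma adjusted p = 0.0384). These last genes were singled out after their values were seen, as partners of Usp1 and Fancl.

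The same question in GMP gave no call. Of the 35 repair genes 0 passed between old and young GMP in limma, as did 0% of all genes, and 4 had an unadjusted p under 0.05, as did 4.51% of all genes. The median was -0.06, against -0.01 over all genes. The smallest p-values were those of Nhej1, which differed by -0.44 (95% interval -0.72 to -0.15; limma adjusted p = 0.881), and Rad54l, which differed by -0.35 (interval -0.61 to -0.09; limma adjusted p = 0.931). Both genes had all old GMP arrays below the young ones. Groups did not overlap in 4 genes lower in old GMP and 1 higher, against 3.72% and 3.10% of all genes. In GMP the 6 genes lower in old HSC differed by -0.22 (Xrcc5), -0.06 (Rad52), -0.05 (Dna2), -0.02 (Blm), -0.01 (Nbn) and 0.12 (Usp1), with wide intervals such as -0.77 to 0.33 for Xrcc5. Without both young replicate 4 arrays Nhej1 alone passed in GMP, with a limma adjusted p of 0.0268 and a difference of -0.56.

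Whether the age difference in HSC exceeded that in GMP was tested directly, and 0 of 35 genes passed, against 0.0933% of all genes (0.0674% lower and 0.0259% higher). An unadjusted p under 0.05 was reached by 6 of the 35 genes and by 11.2% of all genes. Fancl had the smallest p, with a difference of -0.66 between the age effects (95% interval -1.14 to -0.18; limma adjusted p = 0.324), from -0.39 in HSC and 0.28 in GMP. The age difference in GMP rested on young GMP replicate 4: without that array it was 0.09, and the difference of the age effects was -0.48 (limma adjusted p = 0.479). Usp1 followed with -0.65 (interval -1.12 to -0.18; limma adjusted p = 0.326). For Xrcc5 it was -0.81 (interval -1.57 to -0.04; limma adjusted p = 0.430). A difference of the age effects between the cell types was therefore not shown for any of these genes.

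HSC and GMP differed in most repair genes. Recombination and Fanconi genes that passed were all lower in HSC, while end-joining genes were found in both directions, with Xrcc5 the largest difference among the 35 genes in young mice. In old mice 19 of 35 genes were lower and 2 higher in HSC than in GMP, against 13.0% lower, 9.25% higher and 22.2% either way among all genes. The median was -0.48, against 0.02 over all genes. In young mice 19 were lower and 3 higher, against 10.9% lower, 13.6% higher and 24.6% either way among all genes, with a median of -0.51 against -0.05. Without overlap between the cell types, 23 genes were lower and 3 higher in old HSC (18.4% and 16.3% of all genes), and 19 lower and 3 higher in young HSC (9.51% and 11.7%). The comparisons at the 2 ages share no arrays. 17 genes were lower at both ages and 2 were higher at both, against 7.63% and 7.78% of all genes. Of the 28 recombination and Fanconi genes 17 were lower at each age and 0 were higher.

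**Figure D4:**
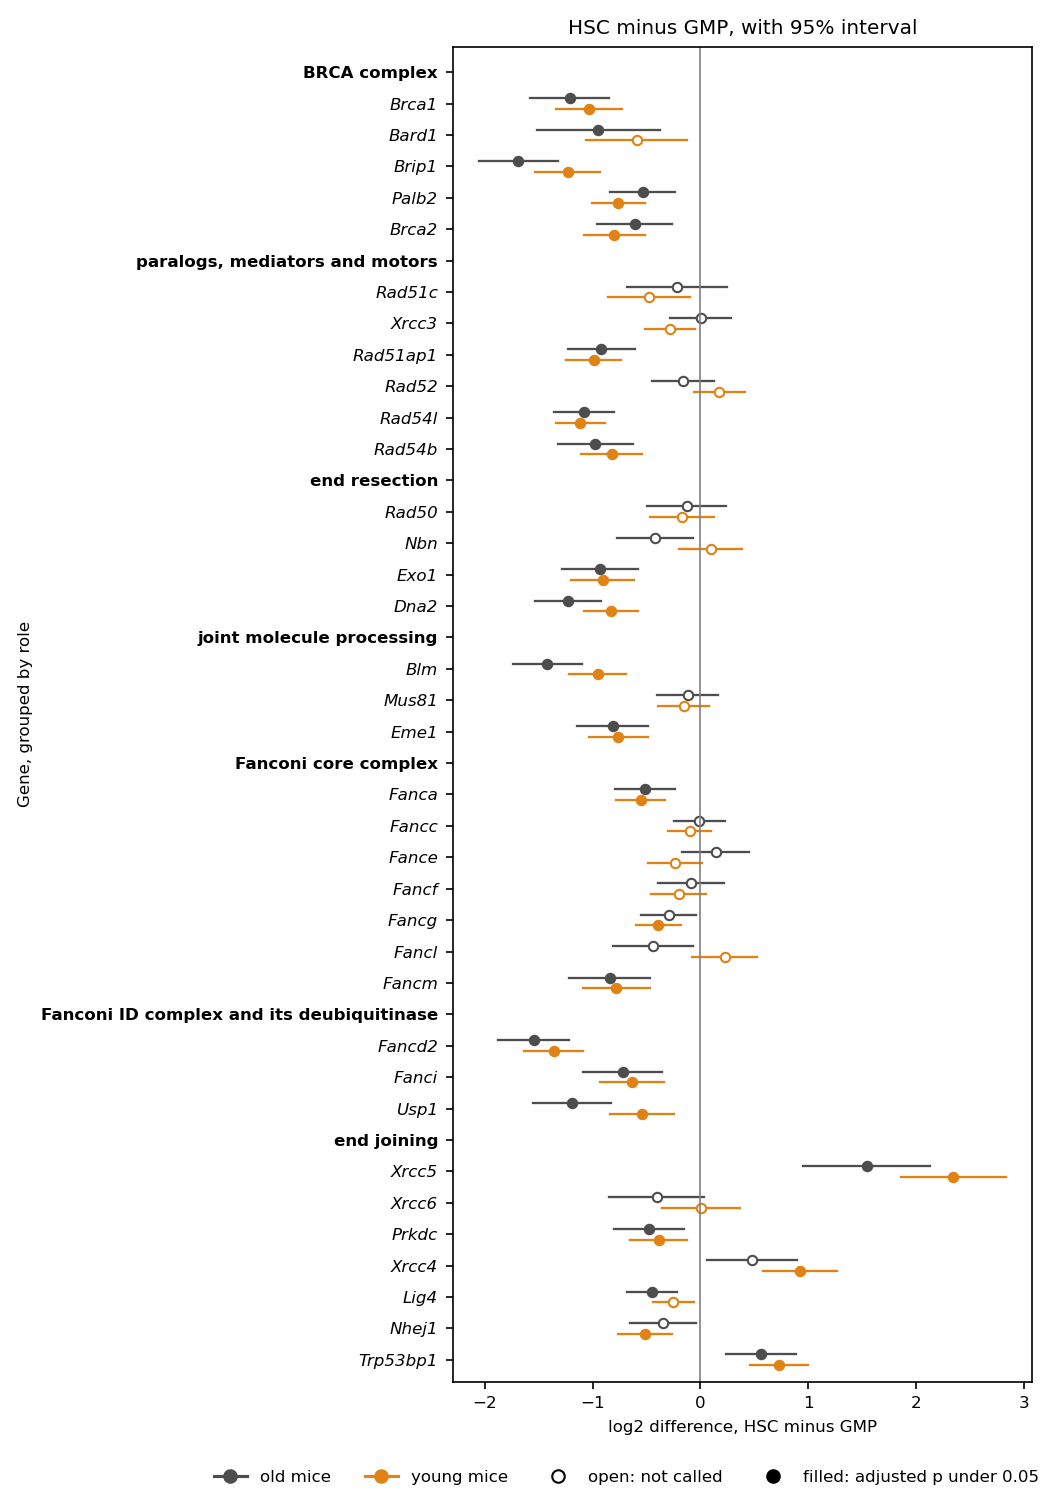
HSC minus GMP log2 difference (horizontal axis) of each of the 35 repair genes in old and in young mice, grouped by role, with 95% intervals; filled points had a limma adjusted p under 0.05. The filled points of recombination and Fanconi genes all lie left of 0, and those of Xrcc5 lie farthest right, at 1.54 in old and 2.35 in young mice.

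In the Fanconi pathway, the 3 genes of the FANCD2 and FANCI step were lower in HSC at both ages. Fancd2 was at 6.98, 7.03 and 7.06 in old HSC, against 8.58, 8.53 and 8.60 in old GMP. In young mice it was at 7.28, 7.25, 7.20, 7.48 and 6.66 in HSC, against 8.62, 8.67, 8.43 and 8.43 in GMP. Every HSC array lay below every GMP array. Fancd2 was 2.92-fold lower in HSC in old mice (log2 -1.55 ± 0.16, SE; limma adjusted p = 4.81e-07) and 2.57-fold lower in young mice (-1.36 ± 0.13; limma adjusted p = 1.17e-07). Usp1 differed by -1.19 in old and -0.54 in young mice, and Fanci by -0.72 and -0.64. Of the 7 core complex genes, Fanca and Fancm passed at both ages. Fanca differed by -0.51 in old and -0.56 in young mice, and Fancm, the translocase that anchors the complex to DNA, by -0.84 and -0.78. Fancg did not pass in old mice (-0.29; limma adjusted p = 0.0957) and passed in young mice (-0.39; limma adjusted p = 0.00605), and whether the ages differed in it is the same test as the difference of the age effects, which did not pass (limma adjusted p = 0.801). Fancc, Fance, Fancf and Fancl did not pass at either age, with differences from -0.44 to 0.22. Group means of Fancc (6.94 to 7.09) and Fancf (6.74 to 6.95) were low, below the array medians of 7.25 to 7.42. Some genes that passed were also below these medians in HSC. Means in old and young HSC were 7.02 and 7.17 for Fancd2, 6.82 and 6.92 for Fancm, and 6.43 and 6.56 for Palb2.

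Of the 5 BRCA complex genes, 5 were lower in HSC in old mice and 4 in young mice. Brip1 was at 7.86, 7.65 and 7.66 in old HSC, against 9.39, 9.38 and 9.47 in old GMP. Its young arrays read 7.96, 8.17, 8.21, 8.79 and 7.91 in HSC, against 9.61, 9.46, 9.26 and 9.43 in GMP. The cell types were separate at both ages, and young HSC replicate 4 was the HSC array nearest to GMP. The differences were -1.69 ± 0.17 in old and -1.23 ± 0.14 in young mice (SE; limma adjusted p = 5.94e-07 and 1.74e-06). Brca1 differed by -1.21 in old and -1.03 in young mice, Palb2 by -0.54 and -0.76 and Brca2 by -0.61 and -0.80, and all passed at both ages. Bard1 passed in old mice (-0.95) but not in young mice (-0.59; limma adjusted p = 0.0626). Its call in old mice was lost without old HSC replicate 3 (-0.60; limma adjusted p = 0.107), without old GMP replicate 1 (-0.91; limma adjusted p = 0.0506) and after quantile normalization (-0.81; limma adjusted p = 0.0964). With young arrays paired by their replicate number Bard1 passed in young mice too (-0.58, limma adjusted p = 0.00545). That fit leaves out young HSC replicate 5, which has no GMP array of its number. The 2 other probe sets of Bard1 differed by -0.84 and -0.89 in young mice.

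Among the paralogs, mediators and motors, the motor genes Rad54l and Rad54b and Rad51ap1 were lower in HSC at both ages. Rad54l was at 8.12, 7.93 and 7.80 in old HSC, against 9.16, 8.92 and 9.01 in old GMP. In young mice the values were 8.39, 8.37, 8.23, 8.25 and 8.10 in HSC, against 9.60, 9.35, 9.40 and 9.17 in GMP. The cell types did not overlap, and the differences were -1.08 ± 0.13 in old and -1.11 ± 0.11 in young mice (SE; limma adjusted p = 5.04e-06 and 1.88e-07). Rad54b differed by -0.98 in old and -0.82 in young mice, and Rad51ap1 by -0.92 and -0.99. Rad52, Rad51c and Xrcc3 did not pass at either age, with -0.16, -0.22 and 0.00 in old and 0.18, -0.48 and -0.28 in young mice. Paired by replicate number, Rad51c passed in young mice (-0.54; limma adjusted p = 0.0116).

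Of the resection genes, the nuclease genes Exo1 and Dna2 were lower in HSC, with differences of -0.93 and -1.23 in old and -0.91 and -0.83 in young mice. The sensor genes Rad50 and Nbn did not pass, with -0.13 and -0.42 in old and -0.17 and 0.09 in young mice. Blm, whose HSC arrays are given above, was at 8.94, 9.17 and 9.33 in old GMP and at 9.19, 9.21, 9.07 and 9.20 in young GMP. No HSC array reached the lowest GMP array. The differences were -1.42 ± 0.15 in old and -0.95 ± 0.13 in young mice (SE; limma adjusted p = 1.02e-06 and 8.45e-06). Eme1 was lower at both ages (-0.82 and -0.76), and its partner gene Mus81 did not pass (-0.12 and -0.16). The group means of Mus81 were low, at 6.82 to 7.03, below the array medians of 7.25 to 7.42.

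End-joining genes were split between the cell types. Xrcc5, at 8.91 to 9.22 in old HSC and 9.76 to 10.27 in young HSC as given above, was at 7.28, 6.95 and 8.24 in old GMP and at 7.83, 8.25, 7.74 and 7.03 in young GMP. Every HSC array lay above every GMP array. Xrcc5 was 2.92-fold higher in HSC in old mice (log2 1.54 ± 0.28, SE; limma adjusted p = 3.85e-04) and 5.10-fold higher in young mice (2.35 ± 0.23; limma adjusted p = 2.05e-07). Its partner gene Xrcc6 did not pass, with -0.41 in old mice (95% interval -0.84 to 0.03) and 0.01 in young mice (-0.35 to 0.37).

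Xrcc4 was at 9.89, 9.27 and 9.35 in old HSC, against 8.88, 9.05 and 9.14 in old GMP, and its difference of 0.48 did not pass (limma adjusted p = 0.0984). In young mice it was at 9.74, 9.69, 9.84, 9.15 and 10.06 in HSC, against 8.77, 9.09, 8.58 and 8.64 in GMP. The lowest young HSC array, replicate 4, lay just above the highest young GMP array, and the difference passed (0.93 ± 0.16, SE; limma adjusted p = 2.26e-04). Trp53bp1 was at 8.85, 8.63 and 9.06 in old HSC, against 8.23, 8.28 and 8.35 in old GMP. Its young arrays read 9.36, 8.88, 8.97, 9.22 and 8.80 in HSC, against 8.56, 8.33, 8.20 and 8.16 in GMP. HSC lay above GMP without overlap, by 0.56 ± 0.16 in old and 0.73 ± 0.13 in young mice (SE; limma adjusted p = 0.0122 and 2.02e-04). Without old HSC replicate 3 the difference in old mice was 0.45 and did not pass (limma adjusted p = 0.0636).

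Other end-joining genes were lower in HSC. Prkdc passed at both ages (-0.48 in old and -0.39 in young mice; limma adjusted p = 0.0317 and 0.0304), Lig4 in old mice (-0.45; -0.25 in young mice) and Nhej1 in young mice (-0.51; -0.35 in old mice). Paired by replicate number, which leaves out young HSC replicate 5, Prkdc did not pass in young mice (-0.31, limma adjusted p = 0.0675). Leaving out that array without pairing gave the same difference (-0.31, limma adjusted p = 0.0854). Prkdc passed in 11 of 16 alternatives in old and 10 of 19 in young mice.

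**Figure D5:**
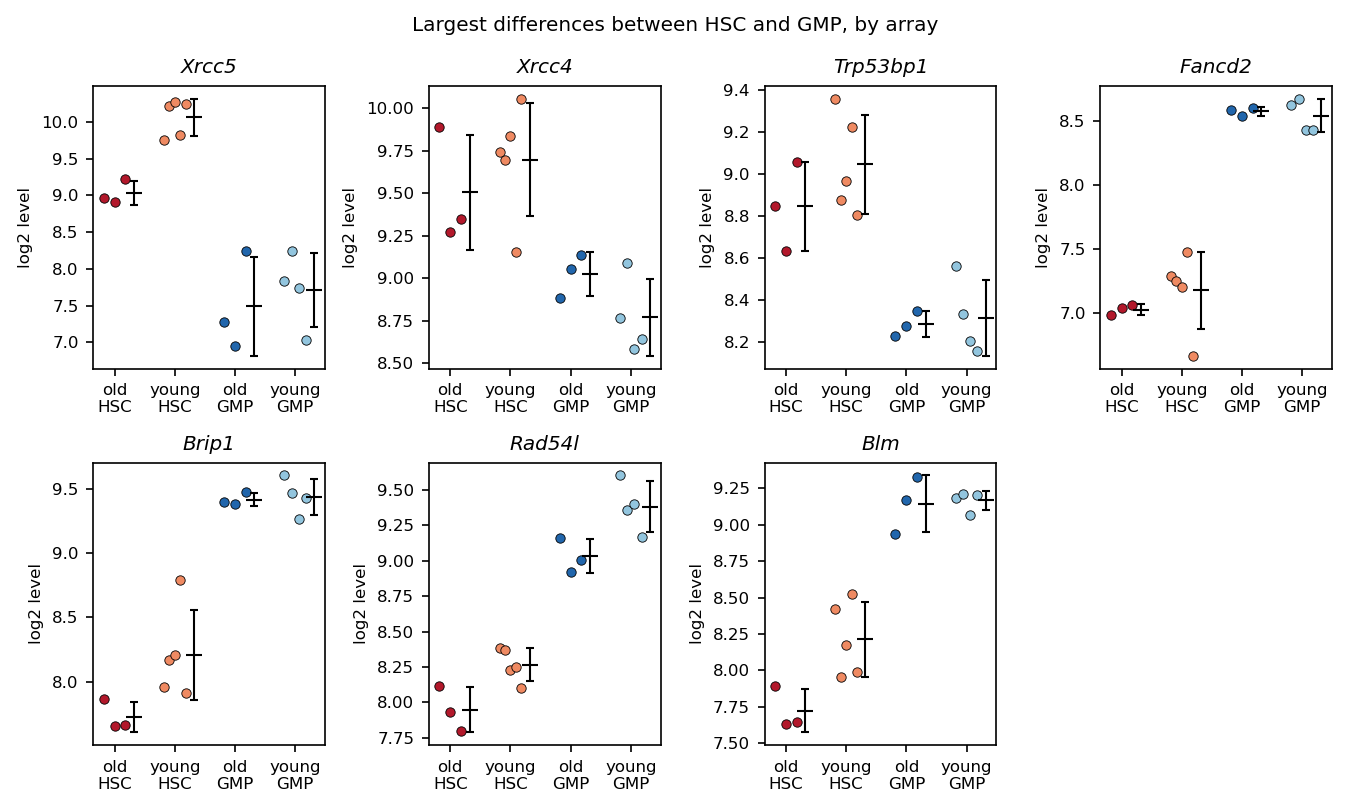
Log2 level (vertical axis, a separate scale per gene) of the repair genes with the largest differences between HSC and GMP, by array (points), with group mean and SD. Xrcc5, Xrcc4 and Trp53bp1 have higher means in HSC, though for Xrcc4 the difference in old mice (0.48) did not pass and that in young mice (0.93) did, and Fancd2, Brip1, Rad54l and Blm are lower in HSC at both ages.

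With single arrays left out, the counts between cell types ran from 18 to 21 in old mice (17% to 21.9% of all genes). In young mice they ran from 21 to 26 (20.3% to 28.5% of all genes). A further fit kept young HSC replicate 1 and young GMP replicate 1, the young arrays with low Xist, as the only young arrays. In it Fancg differed by -0.18, Blm by -0.76, Xrcc4 by 0.97 and Trp53bp1 by 0.80 in young mice. That fit set 1 young array against 1, with no young replicate, and took its spread from the old groups alone. No count is therefore given for it. Proliferation genes moved the same way as recombination genes: 24 of 24 were lower in HSC at each age, against 13.0% of all genes in old and 10.9% in young mice. Their medians were -1.47 in old and -0.98 in young mice. The mean level of this list was 8.11 to 8.66 on old HSC arrays against 9.59 to 9.95 on old GMP arrays, and 8.51 to 8.89 on young HSC arrays against 9.63 to 9.74 on young GMP arrays. Its part in the repair genes' differences was not tested.

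Of the 55 other genes of these pathways, 23 were lower and 0 higher in HSC in old mice, against 13.0% and 9.25% of all genes. In young mice 21 were lower and 6 higher, against 10.9% and 13.6% of all genes. The most negative differences in old mice were those of Gen1, a nuclease that cuts Holliday junctions (-2.45), the chromatin remodeller gene Hells (-1.67), Psmc3ip (-1.40) and Parpbp, whose human protein restrains recombination (-1.31). In young mice they were those of Gen1 (-1.73), Polq, the polymerase of an alternative end-joining route (-1.07), the paralog gene Rad51b (-1.02) and Hells (-0.95). The most positive in young mice were those of the Fanconi core partner gene Faap20 (0.54), Sfr1, the partner of SWI5 (0.42), Nabp2, a single-strand binding protein gene (0.41), and Aptx, which repairs abortive ligations (0.37).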

How the data were processed

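The authors deposited 1 table of log2 values for 23309 probe sets on 15 arrays; RMA, affy and limma are named in the submitters' processing notes, and the log2 scale was read from the values. Versions, filters and a genome build are not given in the sources used here. Probe sets with 1 symbol in the platform annotation (20728) were kept, those with several (1174) or none (1407) left out, and the brightest per gene used, leaving 19296 genes. All 15 columns were matched by title.

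Group means were fitted over all arrays and genes in limma (3.58.1, R 4.3.3), with eBayes and Benjamini-Hochberg adjustment over all genes and a threshold of 0.05. It was tested on simulated data. The number of arrays limits the precision.

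The genes and lists were chosen with earlier results of these data known. Every repair gene is named where called; arrays are given for genes called with age and for the 3 largest cell-type differences in each direction; of other lists up to 4 called genes in each direction are named.

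Young arrays were taken as paired by replicate number. Deviations from the group means of same-numbered young HSC and GMP arrays correlated at 0.287, 0.235, 0.161 and 0.525, each over 0.1. Unlike-numbered young HSC and GMP arrays correlated at -0.414 to 0.247, which overlaps these values, so the pairing is an assumption. Same-numbered old arrays correlated at 0.050, 0.230 and 0.422, and unlike-numbered old ones at -0.404 to 0.232. Old arrays are not taken as paired.

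Alternatives were the normalization, the variance prior, the arrays fitted, dim genes (under the 25th percentile), the probe set, the interquartile range, the replicate block, arrays that went against their labels, and single arrays left out. The block within each age was chosen after seeing the data.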

Additional observations from a re-analysis of the deposited data

Results flagged for a closer look

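In each group of 4 or more arrays the highest and lowest array of each repair gene was compared with the rest by Dixon's criterion. Of 70 such groups 5 had an array far from the others, where chance gives about 1 in 20, or 3.5 groups. Young HSC replicate 2 was high for Rad52, at 8.91 against 8.67 to 8.74 on the other young HSC arrays, and low for Mus81, at 6.53 against 6.93 to 6.98. Young HSC replicate 4 was high for Fanca, at 7.72 against 7.26 to 7.39. Young GMP replicate 4 was low for Fancl, at 7.60 against 8.27 to 8.37 on the other young GMP arrays. Young GMP replicate 1 was high for Prkdc, at 8.85 against 8.66 to 8.68. Groups of 3 arrays were not examined in this way.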

How the results depend on the processing

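The count of repair genes called with age in HSC was 6 as reported, with 11.5% of all genes called. It was 3 after quantile normalization (6.79% of all genes), 1 when only the HSC arrays were fitted (4.51%) and 0 with the interquartile range as a covariate (0.544%). It was 13 with the replicate number as a block (32.5%), 14 without both young replicate 4 arrays (32%), and 0 to 10 with single arrays left out. With age in GMP the count was 0 as reported and 0 to 0 with single arrays left out. It was 1 with the replicate block (Nhej1, limma adjusted p = 0.0469; 1.2% of all genes) and 1 without both young replicate 4 arrays (0.974%). In these age comparisons the block joined old and young arrays of the same number, which come from different mice, so it describes no pairs. For the difference of the age effects it was 0 in every setting run; fitting only the groups compared was not run, since it needs all groups. Between HSC and GMP the count in old mice was 21 as reported and 18 to 21 with single arrays left out; in young mice it was 22, then 11 with the low-Xist young arrays only and 21 to 26 with single arrays left out. A block on the replicate number within each age gave 25 in old mice, where Nbn, Fancl, Xrcc6 and Xrcc4 were added, and 23 in young mice, and it changed no call between cell types other than these and those of Bard1, Rad51c and Prkdc given above. No gene that passed in a comparison changed sign in any setting run for it. Of 17 alternatives for age in HSC, Xrcc5 passed in 12, Dna2 in 9, Blm and Usp1 in 8, Nbn in 7 and Rad52 in 6. The causes of these changes were not tested. With 3 old arrays per cell type, a gene that did not pass can still differ by any amount within its interval.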
